A study of Mus musculus with 6 samples.

Results

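Toll-like receptors (TLRs) are membrane proteins that detect molecules of microbes, and CD14 is a co-receptor that hands some of these molecules to them. The 10 genes examined were those named Tlr1, Tlr2, Tlr3, Tlr4, Tlr6, Tlr7, Tlr8, Tlr9, Tlr13 and Cd14, found by gene name among the 54532 genes of the deposited table. They were compared between wild type (WT) macrophages and macrophages without progranulin (PGRN KO), a secreted and lysosomal glycoprotein encoded by Grn. Both groups were of strain C57BL/6J by their labels, and both were challenged in vitro with Candida albicans for 6 hours, with 1 fungal cell for each of 2000000 macrophages in a well. There were 3 WT libraries (replicates 1, 2 and 3) and 3 PGRN KO libraries (replicates 4, 5 and 6), and no unchallenged cells. Nothing in the labels says whether libraries of a group came from separate mice, so p-values measure only the spread between these libraries. According to the study's methods the WT and PGRN KO mice came from different suppliers, and supplier and genotype cannot be told apart.

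By location, Tlr1, Tlr2, Tlr4 and Tlr6 encode receptors of the cell surface, and Tlr3, Tlr7, Tlr8, Tlr9 and Tlr13 encode receptors of endosomes. Surface TLRs bind lipids, lipopeptides and mannans of bacterial and fungal walls, whereas endosomal TLRs bind nucleic acids freed from engulfed microbes or dying cells. TLR3 signals through the adaptor TRIF, TLR4 through both TRIF and MyD88, and the others named here through MyD88. In macrophages these receptors act beside the C-type lectins in the recognition of Candida.

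Among the 10 genes, the endosomal receptors Tlr3 and Tlr13 moved in opposite directions and the surface receptor Tlr1 fell. Tlr3 rose 3.49-fold in PGRN KO, Tlr13 fell to 50.5% of its WT level and Tlr1 to 71.4%. Differences in Tlr2, Tlr4, Tlr6, Tlr7, Tlr8 and Cd14 did not pass the test, and Tlr9 was too weakly expressed to be tested. Values are FPKM, fragments per kilobase of gene model scaled to library size, which can be compared between genes. Tests were made with limma on log2(FPKM + 1) over 8882 genes whose mean FPKM reached 1, and a call means a Benjamini-Hochberg adjusted p under 0.05 over all of them. Of the 9 members tested, 3 were called, 1 higher and 2 lower, whereas 24.2% of all tested genes were called, 10.4% higher and 13.8% lower. The FPKM ranges of the genotypes were apart for 3 of the 9 members and for 48.8% of all tested genes. With 3 against 3 libraries the exact two-sided permutation test cannot go below p = 0.1, and it gave 0.1 for each of Tlr3, Tlr13 and Tlr1.

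The libraries held 15996786 to 17551619 fragments. Grn was at 323 to 337 FPKM in the WT libraries and at 0 to 0.0167 FPKM in the others. PGRN KO replicate 6 stood apart. Its deviation from the mean of each gene fell with gene length (Spearman's rho -0.471 across 8882 genes, which are not independent replicates, against 0.151 to 0.243 in the other libraries). That mean was over all 6 libraries, so a fall in replicate 6 by itself gives the other libraries values above 0. Their values therefore do not show a length trend of their own. Replicate 6 was the lowest of the 3 PGRN KO libraries for 7 of the 10 members and the highest for Cd14, the shortest of them. The 9 receptor genes have models of 3014 to 5556 bases, Cd14 has 1572, and the median of tested genes was 3856. The place of replicate 6 did not follow length alone. It was furthest below replicates 4 and 5 for Tlr8 (50.4% of their mean), whose model of 3586 bases is shorter than that median. Tlr1 and Tlr9, with 3346 and 3478 bases, were also lowest in replicate 6. The part of gene length in the place of replicate 6 was not tested. Members whose call rests on this library are given with and without it. The labels name peritoneal macrophages, whereas the study's text describes cells grown from bone marrow and another ratio of fungus to cells. Of 7 macrophage genes 1 was called higher and 1 lower. Lyz2, Cd68 and Adgre1 were at 5657 to 8135, 1103 to 1344 and 162 to 195 FPKM and were not called. Csf1r was lower in PGRN KO (log2 change -0.38, limma adjusted p 0.0178) and Mertk higher (log2 change 0.81, limma adjusted p 0.00640). Of 5 genes listed for large peritoneal macrophages, Gata6 (3.78 to 5.07 FPKM), Icam2 (2.94 to 5.43 FPKM) and Prg4 (10.4 to 16.2 FPKM) were detected in each library. Timd4 was at most 0.204 FPKM and Selp at most 0.120 FPKM. Icam2 was called higher in PGRN KO (limma adjusted p 0.00914).

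**Figure D1:**
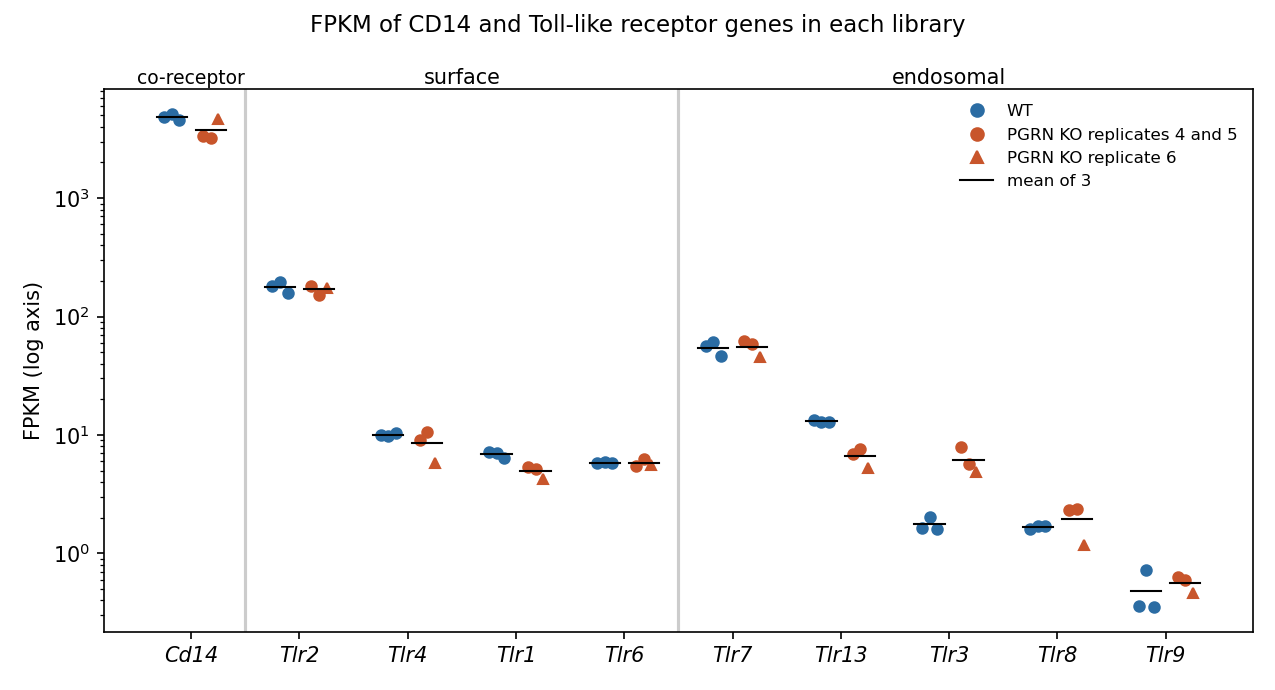
FPKM (log axis) of Cd14, the surface receptors and the endosomal receptors in each library, with WT in blue, PGRN KO in orange, PGRN KO replicate 6 as a triangle and the mean of 3 libraries as a bar. Cd14 lies above all receptors, Tlr2 and Tlr7 lead their classes, and the genotypes are apart for Tlr1, Tlr13 and Tlr3.

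The promoters of the 3 genes that changed are shown with that of Tlr2, the most abundant receptor, which was not called. RefSeq windows from 250 bases before to 50 bases after a RefSeq gene start (GRCm38.p6) were found for 7 of the 10 members. Searched on both strands were the PU.1 site GAGGAAG, the gamma-activated site TTCNNNGAA, the interferon-stimulated response element GAAANNGAA and the NF-kB site by its usual degenerate consensus. They occur in 13.6%, 8.3%, 8.56% and 8.46% of the 32851 promoters searched. Capitals mark the matches.
Tlr3, chr8:45410331-45410630, minus strand, NF-kB match in capitals: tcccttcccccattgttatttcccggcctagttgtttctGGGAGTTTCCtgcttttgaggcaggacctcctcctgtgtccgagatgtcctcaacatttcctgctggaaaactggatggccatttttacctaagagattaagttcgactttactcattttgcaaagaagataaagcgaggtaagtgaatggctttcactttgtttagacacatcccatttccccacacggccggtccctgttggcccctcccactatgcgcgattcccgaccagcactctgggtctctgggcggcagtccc
Tlr13, chrX:106143025-106143324, plus strand, PU.1 match in capitals: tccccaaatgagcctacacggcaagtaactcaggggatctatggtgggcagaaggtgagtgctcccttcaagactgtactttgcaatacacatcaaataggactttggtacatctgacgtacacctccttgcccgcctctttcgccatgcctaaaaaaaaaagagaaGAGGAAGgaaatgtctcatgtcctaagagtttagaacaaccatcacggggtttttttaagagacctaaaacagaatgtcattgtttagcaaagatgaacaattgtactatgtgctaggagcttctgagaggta
Tlr1, chr5:64933509-64933808, minus strand, PU.1 match in capitals: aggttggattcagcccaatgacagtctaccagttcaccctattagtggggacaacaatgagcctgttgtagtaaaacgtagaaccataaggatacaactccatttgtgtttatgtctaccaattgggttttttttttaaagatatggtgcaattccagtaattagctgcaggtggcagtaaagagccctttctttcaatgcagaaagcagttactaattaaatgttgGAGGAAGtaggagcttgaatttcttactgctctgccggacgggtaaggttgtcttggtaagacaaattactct
Tlr2, chr3:83841559-83841858, minus strand, NF-kB matches in capitals: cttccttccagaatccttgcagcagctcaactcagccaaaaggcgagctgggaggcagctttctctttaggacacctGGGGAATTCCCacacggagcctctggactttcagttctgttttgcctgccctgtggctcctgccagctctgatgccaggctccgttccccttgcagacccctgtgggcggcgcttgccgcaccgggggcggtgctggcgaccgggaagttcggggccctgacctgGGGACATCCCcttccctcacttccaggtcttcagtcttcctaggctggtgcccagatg

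Positions are counted from the RefSeq start, which for Tlr3 lies 700 bases inside the gene as given in the deposited table, so that this window is within the gene counted. The RefSeq starts of Tlr13, Tlr1 and Tlr2 lie 71, 5 and 159 bases inside. In the Tlr3 window the NF-kB match lay at -211 to -202. The PU.1 match of Tlr13 lay at -83 to -77 and that of Tlr1 at -23 to -17. Tlr9, which was not tested, also held PU.1 matches, at -112 to -106 and 12 to 18. PU.1 is a transcription factor of myeloid cells, and NF-kB is a factor that TLRs activate. In Tlr2 overlapping NF-kB matches lay at -173 to -163, and another at -8 to 2. RefSeq gives Tlr1 another start, whose window held a gamma-activated site at -228 to -220. The windows of Tlr6 and Tlr8, neither called in the main test, held matches to the interferon-stimulated response element and the gamma-activated site. A match of these letters is a description and no sign of binding.

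The order of the levels was examined next. In WT it ran Cd14, Tlr2, Tlr7, Tlr13, Tlr4, Tlr1, Tlr6, Tlr3, Tlr8 and Tlr9, and among neighbours only Tlr3 and Tlr8 overlapped in range. In PGRN KO the middle of this order was not resolved. Tlr4, Tlr13, Tlr3 and Tlr6 had means of 8.49, 6.58, 6.14 and 5.78 FPKM, and each overlapped the next.

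Tlr3 (ENSMUSG00000031639, chromosome 8, 45395665 to 45411080) encodes the endosomal receptor for double-stranded RNA. It was at 1.65, 2.04 and 1.60 FPKM in WT replicates 1, 2 and 3 and reached 7.84, 5.68 and 4.91 FPKM in replicates 4, 5 and 6 of PGRN KO, from 144 to 157 and 442 to 707 fragments. Every PGRN KO library was above every WT library, and replicate 4 was the highest. This gave a log2 change of 1.35 (SE 0.16, limma adjusted p 0.00297), and 1.48 without PGRN KO replicate 6. The call was kept in the 13 alternatives that tested the gene. A share of 6.1% of the 31-base words of Tlr3 also occurs in other genes, mainly Gm45542, a gene model on the opposite strand that was listed at 0 in each library. The tested genes whose profile over the 6 libraries lay nearest to that of Tlr3 were Tnfsf8, Trim14 and Ifit2, with root mean square differences of 0.117, 0.118 and 0.122 on the log2 scale. Ifit2, an interferon-induced gene, was at 127 ± 23.6 FPKM (WT) against 351 ± 67.9 FPKM (PGRN KO; SD, n = 3 each). Tnfsf8 was at 1.20 ± 0.0333 FPKM (WT) against 4.49 ± 0.805 FPKM (PGRN KO), and Trim14 at 3.21 ± 0.146 against 8.46 ± 1.45 FPKM. These genes were picked for a profile like that of Tlr3, so their differences between genotypes follow from the choice.

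Tlr13 (ENSMUSG00000033777, chromosome X, 106143204 to 106160493) encodes a receptor for a stretch of bacterial ribosomal RNA. It was at 13.3, 12.9 and 12.9 FPKM (WT) against 6.95, 7.55 and 5.26 FPKM (PGRN KO), from 820 to 999 and 391 to 615 fragments. The WT libraries lay close together, and all PGRN KO libraries were below them. This gave a log2 change of -0.90 (SE 0.13, limma adjusted p 0.00509), and -0.77 without PGRN KO replicate 6, its lowest library. The call was kept in all 14 alternatives. Its nearest profiles were those of Slc39a14, a zinc and iron transporter, Gfpt1, the first enzyme of the hexosamine pathway, and Zfp655, with root mean square differences of 0.0184, 0.0297 and 0.0357.

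Tlr7 (ENSMUSG00000044583, chromosome X, 167304929 to 167330558), a receptor for single-stranded RNA, was the most abundant endosomal receptor. It was at 56.2, 60.9 and 46.2 FPKM (WT) against 62.7, 59.2 and 45.5 FPKM (PGRN KO), and the groups overlapped. The log2 change was 0.03 with a 95% interval of -0.34 to 0.40 (limma adjusted p 0.899). Tlr8 (ENSMUSG00000040522, chromosome X, 167242696 to 167264329), its neighbour and close relative, was at 1.62, 1.72 and 1.72 FPKM (WT) against 2.30, 2.37 and 1.18 FPKM (PGRN KO). Replicates 4 and 5 were above WT and replicate 6 was below it. With replicate 6 the log2 change was 0.11 (95% interval -0.31 to 0.53, limma adjusted p 0.676). Without it the change was 0.32 and was called (limma adjusted p 0.0189), in a fit that called 41.0% of all tested genes, 15.9% higher and 25.1% lower.

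Tlr9 (ENSMUSG00000045322, chromosome 9, 106222598 to 106226883), which binds DNA rich in unmethylated CpG, was at 0.361, 0.719 and 0.351 FPKM (WT) against 0.631, 0.592 and 0.466 FPKM (PGRN KO). These values rested on 21 to 39 fragments per library and overlapped. B cells, in which Tlr9 is abundant, can be present in peritoneal preparations. All 5 B cell markers examined were detected, their sum was 1.50 to 2.49 FPKM (WT) against 6.62 to 8.92 FPKM (PGRN KO), and the 2 that could be tested, Cd79a and Cd79b, were called higher. Cd79a was at 0.697 to 1.35 FPKM (WT) against 3.25 to 4.53 FPKM (PGRN KO), and Cd79b at 0.376 to 0.813 against 1.22 to 2.43 FPKM. The WT means of both were below 1 FPKM, so they reached the filter only through the PGRN KO libraries. At such WT levels only a rise could be tested.

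Markers of other cell types were examined in the same way. The sum of 5 dendritic cell markers was 1.77 to 2.23 FPKM (WT) against 1.08 to 1.38 FPKM (PGRN KO), and none was high enough to be tested. Xcr1 was at 0.971 to 1.34 FPKM (WT) against 0.324 to 0.451 FPKM (PGRN KO), Zbtb46 at 0.532 to 0.583 against 0.571 to 0.764 FPKM, and Cd209a at 0 in each library. The sum of 5 mast cell markers was 1.47 to 2.25 FPKM (WT) against 6.39 to 8.84 FPKM (PGRN KO), and Tpsb2, the 1 that could be tested, was called higher (limma adjusted p 0.00250). Tpsb2 was the largest part of that sum in each library. Kit did not rise, at 0.218 to 0.423 FPKM (WT) against 0.130 to 0.343 FPKM (PGRN KO). Of 6 neutrophil markers S100a8 was called lower, at 48.3 to 52.8 FPKM (WT) against 21.2 to 25.6 FPKM (PGRN KO; limma adjusted p 0.00142), while Ly6g and Elane were at 0 in each library. T cell markers summed to 2.00 to 2.79 FPKM (WT) against 2.30 to 4.41 FPKM (PGRN KO), fibroblast and mesothelial markers to 0.236 to 0.487 against 0.612 to 1.20 FPKM, and the eosinophil genes Epx and Prg2 were at 0. In the fibroblast and mesothelial list only the collagen genes Col1a1 and Col3a1 were higher. The mesothelial genes overlapped, with Msln at 0.0640 to 0.141 FPKM (WT) against 0 to 0.137 FPKM (PGRN KO) and Upk3b at 0 to 0.0508 against 0 to 0.0164 FPKM. The part of these cell types in the values of the members was not tested. In bulk RNA, fewer cells of a type and less RNA per cell cannot be told apart.

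The make-up of the endosomal receptors differed between the genotypes while their summed level overlapped, at 71.4 ± 7.90 FPKM (WT) against 71.0 ± 12.1 FPKM (PGRN KO; SD, n = 3 each). Tlr13 supplied 16.5 to 20.5% of the sum in WT libraries and 8.64 to 10.0% in the others. Tlr3 supplied 2.26 to 2.61% and 7.54 to 9.75%, and Tlr7 73.7 to 77.8% and 78.0 to 79.4%. The ratio of Tlr3 to Tlr13 was 0.124 to 0.158 in WT libraries and 0.753 to 1.13 in the others. These shares are descriptions and carry no test.

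Turning to the surface, Tlr2 (ENSMUSG00000027995, chromosome 3, 83836272 to 83841767) is the shared chain of the receptors for lipopeptides. It was at 182, 196 and 158 FPKM (WT) against 182, 153 and 175 FPKM (PGRN KO). The groups overlapped, with a log2 change of -0.07 (95% interval -0.35 to 0.22, limma adjusted p 0.707). TLR2 pairs with TLR1 to bind triacylated lipopeptides and with TLR6 to bind diacylated ones.

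Tlr1 (ENSMUSG00000044827, chromosome 5, 64924679 to 64933563) was at 7.22, 7.07 and 6.44 FPKM (WT) against 5.40, 5.13 and 4.27 FPKM (PGRN KO), from 350 to 404 and 247 to 325 fragments. All PGRN KO libraries were below all WT libraries. This gave a log2 change of -0.42 (SE 0.11, limma adjusted p 0.0304). The call was lost when WT replicates 1, 2 and 3 and PGRN KO replicate 5 were left out in turn (limma adjusted p 0.126, 0.113, 0.0720 and 0.0591), in fits that called 7.82%, 9.53%, 9.83% and 17.9% of all tested genes. It was also lost without a filter (0.0682, 5.96% called) and on a TPM scale (0.137, 17.2% called).

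Tlr6 (ENSMUSG00000051498, chromosome 5, 64952031 to 64960097), which lies beside Tlr1 in the genome, was at 5.74, 5.90 and 5.83 FPKM (WT) against 5.50, 6.22 and 5.62 FPKM (PGRN KO). The groups overlapped, and the log2 change of -0.01 had a 95% interval of -0.21 to 0.19 (limma adjusted p 0.940). The ratio of Tlr1 to Tlr6 was 1.11 to 1.26 in WT libraries and 0.760 to 0.982 in the others, so that Tlr1 had the higher FPKM in all WT libraries and Tlr6 in all PGRN KO libraries. This order was narrow in PGRN KO replicate 4, at 0.982 from 313 and 355 fragments. In WT replicate 3 the genes had 389 and 392 fragments, so the order there rests on the lengths of the gene models. Tlr1 and Tlr6 share stretches of sequence, with 20% of the 31-base words of Tlr1 and 16.6% of those of Tlr6 found in other genes, mainly in each other. How fragments from these stretches were counted was not stated, and the split between both genes is uncertain to that extent.

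Tlr4 (ENSMUSG00000039005, chromosome 4, 66827584 to 66930284), the receptor for lipopolysaccharide, was at 9.90, 9.76 and 10.3 FPKM (WT) against 9.11, 10.6 and 5.77 FPKM (PGRN KO). Replicate 6 was the low one, at 58.6% of the mean of replicates 4 and 5, and Tlr4 has the longest gene model of the 10. The log2 change was -0.25 (95% interval -0.70 to 0.21, limma adjusted p 0.374) with this library and -0.022 without it (adjusted p 0.839).

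**Figure D2:**
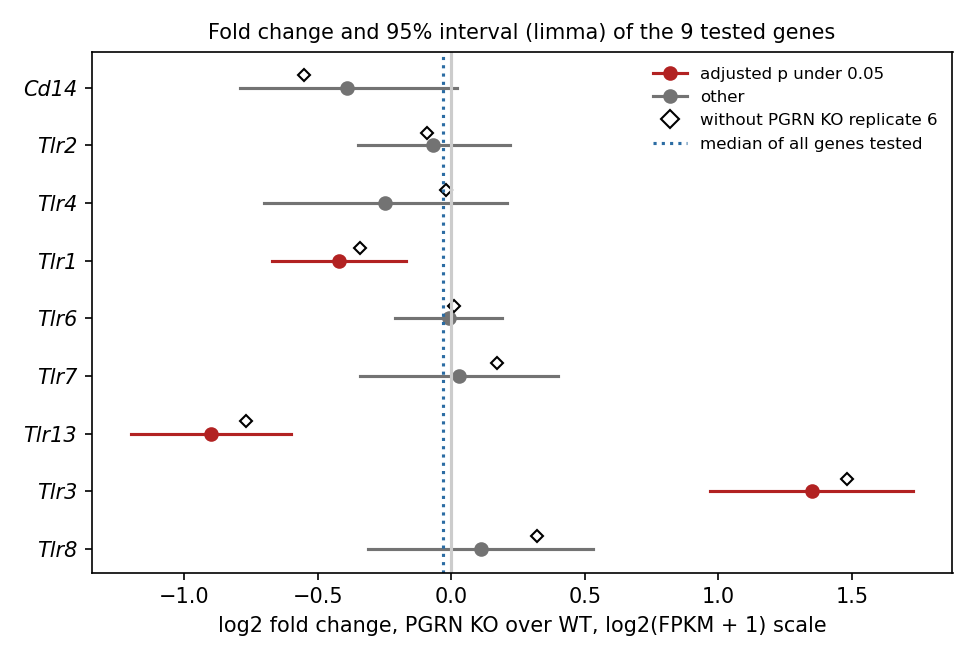
Log2 fold change of PGRN KO over WT on the log2(FPKM + 1) scale for the 9 tested genes, with the 95% interval of limma as a line, called genes in red, the value without PGRN KO replicate 6 as an open diamond and the median of all 8882 genes as a dotted line. Tlr3 lies at 1.35, Tlr13 at -0.90 and Tlr1 at -0.42, and the intervals of the other 6 genes include 0.

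Cd14 (ENSMUSG00000051439), which binds lipopolysaccharide and lipopeptides and helps carry TLR4 into endosomes, was the most abundant of the 10 transcripts. It was at 4828, 5138 and 4527 FPKM (WT) against 3366, 3209 and 4653 FPKM (PGRN KO). Replicates 4 and 5 were below all WT libraries, while replicate 6 lay within the WT range. The log2 change was -0.39 (95% interval -0.79 to 0.02, limma adjusted p 0.143). Cd14 was called lower without replicate 6 (-0.55, limma adjusted p 0.00327), after a correction of each library for gene length (-0.48, limma adjusted p 0.00841, with 31.7% of all genes called) and on a TPM scale (-0.33, limma adjusted p 0.0262).

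**Figure D3:**
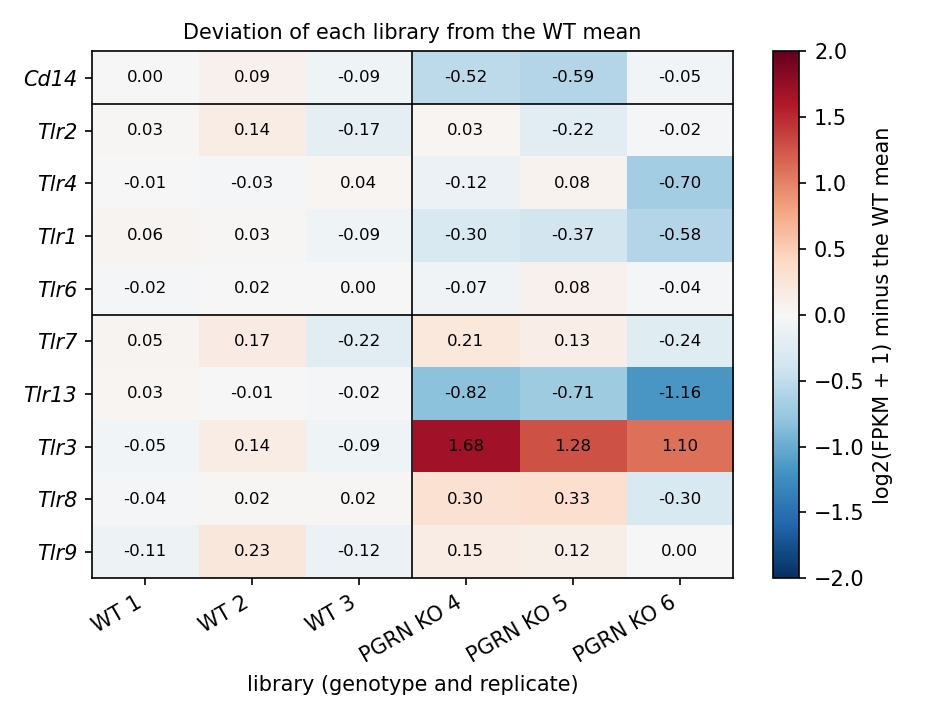
Deviation of each library from the WT mean on the log2(FPKM + 1) scale for the 10 genes, red for higher and blue for lower, with lines between Cd14, surface and endosomal receptors and between the genotypes. Tlr3 is higher by 1.10 to 1.68 in the PGRN KO libraries, and replicate 6 stands apart from replicates 4 and 5 for Tlr4 (-0.70), Tlr8 (-0.30) and Cd14 (-0.05).

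To compare surface with endosomal receptors, the mean log2(FPKM + 1) of the 4 surface genes minus that of the 5 endosomal genes was taken in each library. It was 1.60, 1.50 and 1.60 (WT) against 1.15, 1.23 and 1.35 (PGRN KO), so that the classes lay closer together in all PGRN KO libraries. The genotypes differed by -0.32 on the log2 scale. The surface mean was 4.12 to 4.21 (WT) against 3.84 to 4.07 (PGRN KO), and the endosomal mean was 2.52 to 2.71 against 2.48 to 2.91. Between genotypes the surface mean differed by -0.19 and the endosomal mean by 0.14. The difference was -0.019 with Tlr3 left out, -0.58 with Tlr13 left out and -0.26 with both left out. All 4 surface receptors had a log2 change below 0, but only Tlr1 was called, and that of Tlr6 was above 0 on a TPM scale (0.037) and with quantile normalization (0.039).

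The remaining mouse receptors were near 0. Tlr5 had 2 fragments in the WT libraries together and 3 in the PGRN KO libraries, and Tlr12 had 0 and 2. The 0 fragments of Tlr12 allow up to 0.0191 FPKM. Tlr11 had 2 fragments in WT and 19 in PGRN KO, of which 9, 9 and 1 fell in replicates 4, 5 and 6. None of these genes reached the level needed for a test.

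The genes around the receptors were then described from 7 lists, which hold 80 tested genes besides the members. Of these, 10 were called higher and 15 lower (31.2% in all), against 24.2% of all tested genes, 10.4% higher and 13.8% lower, which are also the shares to read each list against. The counts were 2 to 11 higher and 4 to 29 lower when single libraries were left out, with the 29 reached without PGRN KO replicate 6. The median log2 change was -0.22, and -0.031 over all tested genes.

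Of the 9 genes that deliver ligands or sit beside surface receptors, Cd14 included, 2 rose and 1 fell. Ly96, which encodes MD-2, the chain of the TLR4 complex that binds lipopolysaccharide, fell from 18.5 ± 1.58 to 12.8 ± 1.88 FPKM (mean ± SD of 3 libraries), with a log2 change of -0.50 (SE 0.12, limma adjusted p 0.0284). The call of Ly96 was lost when any library but PGRN KO replicate 6 was left out (limma adjusted p up to 0.113). Lbp, the lipopolysaccharide-binding protein, rose from 0.335 ± 0.0774 to 1.94 ± 0.340 FPKM (limma adjusted p 0.00199). Its WT mean was below 1 FPKM, so it reached the filter only through the PGRN KO libraries, and only a rise could be tested. Without PGRN KO replicate 4 or 6 Lbp was not tested. Mfge8, a secreted bridge to dying cells, rose from 11.2 ± 0.359 to 35.8 ± 7.33 FPKM (limma adjusted p 0.00142). Cd180 and Ly86, which form a surface complex related to that of TLR4, were not called. Cd180 was at 5.47 ± 0.627 FPKM (WT) against 4.97 ± 0.819 FPKM (PGRN KO), and Ly86 at 5.23 ± 0.390 FPKM (WT) against 4.22 ± 0.535 FPKM (PGRN KO). The ranges of Ly86 did not overlap, and it was called lower without PGRN KO replicate 6 (-0.33, limma adjusted p 0.0243, against 0.126).

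Of 11 tested chaperones and trafficking genes, 1 rose and 2 fell. Unc93b1, which escorts the endosomal receptors out of the endoplasmic reticulum, was at 96.1 ± 3.76 FPKM (WT) against 82.8 ± 11.4 FPKM (PGRN KO) and was not called (limma adjusted p 0.204), whereas without PGRN KO replicate 6 it was called lower (0.00872). Slc15a4, an endolysosomal transporter needed for TLR7 and TLR9 responses, fell from 4.49 ± 0.337 to 3.25 ± 0.236 FPKM (limma adjusted p 0.0317). Rab7b, a small GTPase of late endosomal transport, fell from 1.89 ± 0.424 to 0.903 ± 0.110 FPKM (limma adjusted p 0.0185). The PGRN KO mean of Rab7b was below 1 FPKM, so it reached the filter only through the WT libraries. Lman1, a cargo receptor of the early secretory pathway, rose from 2.65 ± 0.172 to 3.47 ± 0.140 FPKM (limma adjusted p 0.0487). Leaving out single libraries gave adjusted p of up to 0.127, 0.0631 and 0.171 for these 3 genes.

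Endosomal receptors are cut by lysosomal proteases before they signal. Of 5 such proteases 2 rose and none fell, Ctsb from 1217 ± 13.3 to 1747 ± 252 FPKM and Ctsk from 109.8 ± 4.95 to 182 ± 30.8 FPKM (limma adjusted p 0.0317 and 0.0117, and up to 0.132 and 0.0643 with single libraries left out). Among genes that handle nucleic acids in lysosomes, of which 4 were tested, the exonucleases Pld3 and Pld4, which degrade ligands of TLR9, moved in opposite directions. Pld3 was at 235, 247 and 235 FPKM (WT) against 357, 357 and 449 FPKM (PGRN KO; limma adjusted p 0.00921). Pld4 was at 11.2, 11.3 and 11.4 FPKM (WT) against 5.10, 4.90 and 5.90 FPKM (PGRN KO; limma adjusted p 0.00146). The genotypes did not overlap for either gene. Sidt2, a lysosomal membrane protein implicated in RNA transport, rose from 9.92 ± 0.401 to 14.4 ± 0.931 FPKM (limma adjusted p 0.00940). Without WT replicate 1 the adjusted p was 0.0578 for Pld3, and without WT replicate 2 it was 0.0531 for Sidt2.

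**Figure D4:**
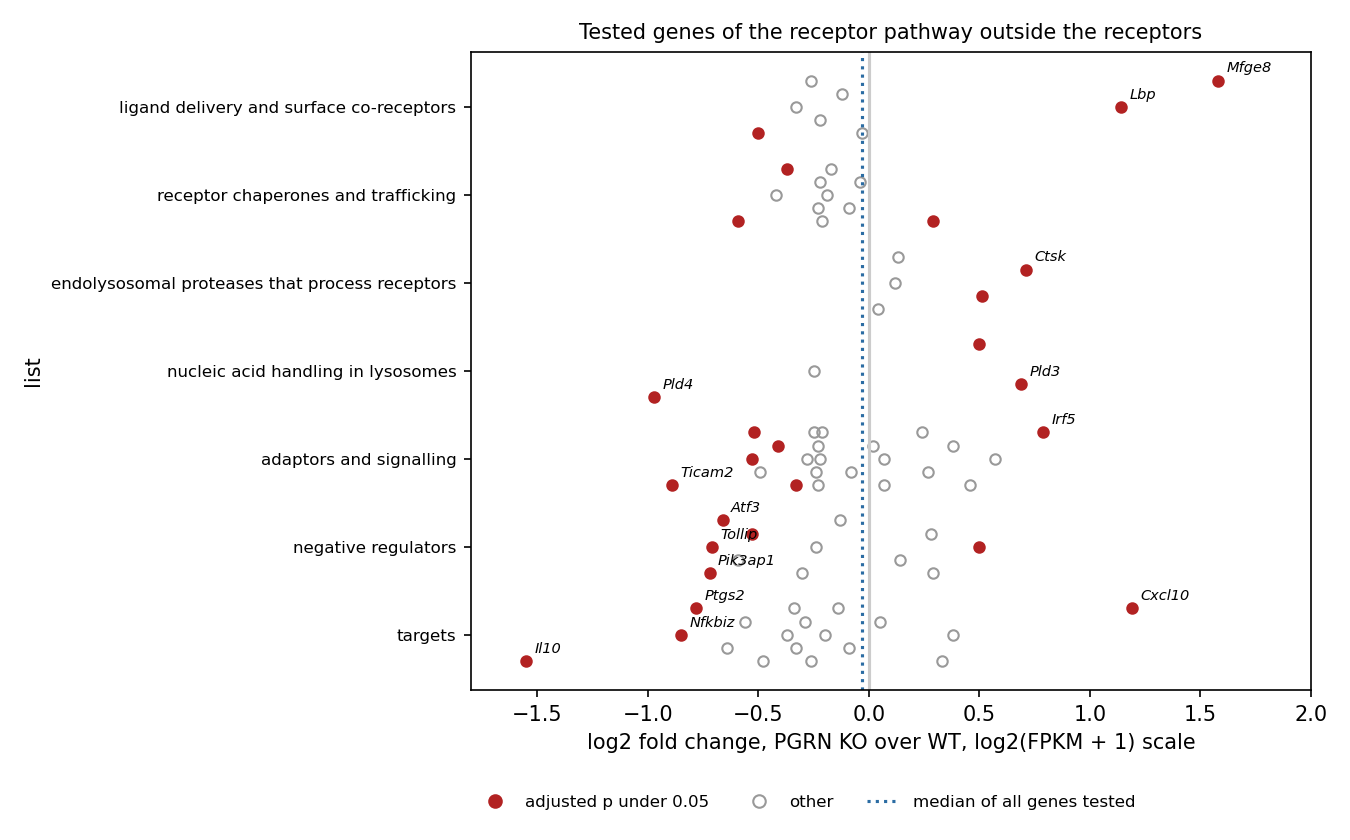
Log2 fold change of PGRN KO over WT on the log2(FPKM + 1) scale for the tested genes of the 7 lists, without the 10 members, each point a gene, filled red where called and open where not, and the dotted line the median of all genes tested. Among called genes Mfge8 (1.58), Cxcl10 (1.19) and Lbp (1.14) lie furthest to the right and Il10 (-1.55), Pld4 (-0.97) and Ticam2 (-0.89) furthest to the left.

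Of 23 tested adaptors and signalling genes, 1 rose and 5 fell, and both adaptors of the TRIF branch were among those that fell. The balance depended on the setting, with 0 to 5 called higher and 1 to 6 lower over the alternatives. It was 3 higher and 3 lower on the TPM scale, 4 and 3 with quantile normalization, and 5 and 5 with the length correction. Ticam1, which encodes TRIF, was at 14.8, 14.1 and 13.6 FPKM (WT) against 9.13, 9.50 and 10.1 FPKM (PGRN KO), with a log2 change of -0.52 (SE 0.08, limma adjusted p 0.00726). Ticam2, which encodes TRAM, the bridge from TLR4 to TRIF, was at 7.47, 7.87 and 6.08 FPKM (WT) against 3.45, 3.54 and 3.17 FPKM (PGRN KO), with a log2 change of -0.89 (SE 0.11, limma adjusted p 0.00343). All PGRN KO libraries were below all WT libraries for both. In the GENCODE M21 annotation Ticam2 shares 15.8% of its 31-base words with other genes, mainly Tmed7, whose exons it overlaps on the same strand. The deposited coordinates of Ticam2 differ from that annotation, so its values are uncertain to an extent that is not known. Myd88 was at 25.9 ± 2.15 FPKM (WT) against 36.3 ± 6.67 FPKM (PGRN KO) and missed the threshold (limma adjusted p 0.0626), but it was called higher in 5 of 14 alternatives, with an adjusted p of 0.0167 on a TPM scale and 0.0246 when PGRN KO replicate 5 was left out. Irf5, a transcription factor that MyD88 activates, rose from 35.5 ± 3.41 to 62.3 ± 9.65 FPKM (limma adjusted p 0.00925), and 12.3% of its words are shared, mainly with Tnpo3 on the opposite strand. Irak3, Ube2n and Ripk1 were the others that fell. Without WT replicate 1 the adjusted p was 0.0519 for Ticam1 and 0.0510 for Irf5, while Ticam2 stayed called without any single library (up to 0.0276). Ube2n and Ripk1 lost the call without any of the 3 WT libraries (up to 0.0901 and 0.146).

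Of 12 tested negative regulators, 1 rose and 4 fell. Tollip, an inhibitor of IRAK kinases, fell from 85.3 ± 1.47 to 51.7 ± 3.36 FPKM, with a log2 change of -0.71 (SE 0.09, limma adjusted p 0.00324). Pik3ap1, which couples TLRs to phosphoinositide 3-kinase, fell from 109 ± 5.29 to 66.5 ± 11.3 FPKM (limma adjusted p 0.0127). Atf3, a repressor of cytokine genes, fell from 1156 ± 57.7 to 734 ± 59.7 FPKM (limma adjusted p 0.00818). Irak3, an inhibitory IRAK family member that is counted in both lists, fell from 52.6 ± 4.88 to 36.2 ± 4.61 FPKM (limma adjusted p 0.0242, and up to 0.101 with single libraries left out). Ptpn6, the phosphatase SHP-1, rose from 20.3 ± 0.659 to 29.5 ± 6.00 FPKM (limma adjusted p 0.0428, and up to 0.140). Pik3ap1 lost the call without each of WT replicates 1, 2 and 3 (adjusted p 0.0580, 0.0613 and 0.0506), and Atf3 without WT replicate 1 (0.0528).

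Of 18 targets of TLR signalling, 1 rose and 3 fell, and the others were not called. This is a share of 22.2%, near the 24.2% of all tested genes. Il10, an anti-inflammatory cytokine, fell from 232 ± 56.8 to 77.2 ± 10.5 FPKM, with a log2 change of -1.55 (SE 0.19, limma adjusted p 0.00340). Nfkbiz, an inducible cofactor of NF-kB, fell from 418 ± 83.1 to 229.9 ± 36.5 FPKM (limma adjusted p 0.0177), and Ptgs2, the inducible cyclooxygenase, from 5468 ± 954 to 3202 ± 694 FPKM (limma adjusted p 0.0392). Cxcl10, a chemokine induced by interferon, rose from 165 ± 46.5 to 378 ± 97.3 FPKM (limma adjusted p 0.0207). With single libraries left out the adjusted p was up to 0.0749 for Nfkbiz, 0.135 for Ptgs2, 0.0746 for Cxcl10 and 0.0246 for Il10.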

How the data were processed

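RNA sequencing was performed on 6 libraries, 3 of WT and 3 of PGRN KO macrophages. The authors deposited FPKM for each library. According to the study's methods, filtered reads were mapped with HISAT and counted with HTSeq, whereas the submitters' processing notes name HISAT2 2.0.5, featureCounts 1.5.0-p3 and the builds mm10 and GRCm38. The sources used here state neither the annotation release nor the use of strand. Coordinates are those of the deposited table, and those of the 9 receptor genes were the same in GENCODE M21 (GRCm38). FPKM multiplied by gene length gave whole fragments for 100% of the positive values checked (tolerance 0.001 of a fragment step), and the library size behind FPKM followed the median-ratio size factor. Genes with many fragments, Cd14, Tlr2 and Tlr7 among them, were not part of that check.

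Genes whose mean FPKM reached 1 were tested on log2(FPKM + 1) with limma 3.58.1 in R 4.3.3 (variance trend, no covariates, two-sided), with Benjamini-Hochberg adjustment over 8882 genes. This scale understates the change of low genes. On simulated data for 3 against 3 libraries and 8882 genes, 85.8% of 200 genes changed by 1 on the log2 scale were called and 8.4% of calls were false. The simulated counts had the same setting of spread for all genes and no library with a length trend like that of PGRN KO replicate 6. These shares therefore need not hold for the measured libraries. Fragment numbers carry counting error only, and reads that lack molecular identifiers need not be independent molecules.

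Alternatives were a pseudocount of 0.1, no filter, a mean FPKM of at least 5, a TPM scale, quantile normalization, sample quality weights, a loess correction for gene length (span 0.5), limma voom on the fragments, and leaving out each library. The members and lists were chosen with earlier results of these data known. Named were Grn, all members, 9 genes fixed by name, the called genes of each list (up to 4 by size), and the 3 nearest profiles of the members with the largest rise and fall. Ube2n, Ripk1, Ptpn6 and the cell type markers were named after their values were seen. No protein sequences were used here.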

Additional observations from a re-analysis of the deposited data

How the results depend on the processing

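Values with Tlr3, Tlr13 or both left out of the class means were added after the data had been seen. No paired analysis was possible because replicates 1, 2 and 3 are all WT and replicates 4, 5 and 6 all PGRN KO.

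Tlr3 and Tlr13 kept direction and call in every alternative that tested them, each left-out library included (log2 changes 1.19 to 1.48 and -0.99 to -0.77 with single libraries left out). With a mean FPKM of at least 5, Tlr3 and Tlr8 were not tested, so that 0 members were called higher. Tlr1 was no longer called without a filter (-0.42), where 1 member was called lower, or on the TPM scale (-0.37), and ranged from -0.48 to -0.34 with single libraries left out. Cd14 was called on the TPM scale (-0.33), with sample quality weights (-0.54) and with the length correction (-0.48), and ranged from -0.55 to -0.29. Tlr8 was called with sample quality weights (0.31), which made 2 members higher, and ranged from -0.00021 to 0.32. PGRN KO replicate 6 had a weight of 0.0899. Tlr6 was above 0 on the TPM scale (0.037) and under quantile normalization (0.039) and ranged from -0.057 to 0.019 with single libraries left out, Tlr2 ranged from -0.15 to 0.0062 and Tlr7 from -0.08 to 0.17, and none of these was called.

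With single libraries left out, 1 to 2 members were called higher and 1 to 3 lower, and 698 to 3645 of all genes were called (327 to 1415 higher, 371 to 2230 lower), against 2151 (921 and 1230). The count was 698, 851 and 877 without WT replicates 1, 2 and 3, and 1370 and 3645 without replicates 4 and 6. It was 1366 (603 and 763) without a filter, from 22912 genes tested, and 4225 (1757 and 2468) with sample quality weights. A mean FPKM of at least 5 gave 529 higher, from fewer genes tested. The TPM scale gave 608 lower, and 60.3% of its calls were higher against 42.8%.

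The class difference of -0.32 was -0.44 with a pseudocount of 0.1, -0.46 on the voom scale, -0.019 without Tlr3, -0.58 without Tlr13, -0.26 without both and -0.38 to -0.27 with single libraries left out. Quantile normalization and the length correction gave no value for it, since Tlr9 was not among the genes scaled.

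Calls in the related lists ranged from 2 to 15 higher and from 4 to 34 lower. Over 29 related genes, 399 comparisons with the main value gave 310 with direction and call kept, 79 with the call lost, 10 with a call gained and 0 with a change of sign. For all changes not ascribed to the genes tested, the cause was not tested. Depth limits Tlr9, Tlr5, Tlr11 and Tlr12.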
